A study of Danio rerio with 4 samples.

Results

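Paired CTCF peaks are couples of binding peaks that lie side by side, within 2 kb of each other, with no other peak chained to them. They were chosen by the positions of the peaks alone, which the authors derived from the reads: peaks were sorted by their centres, neighbours at most 2000 bp apart were chained, and chains of exactly 2 peaks were kept, on chromosomes 1 to 25 without chromosomes 4, 18 and 22. The 22 chromosomes held 32075 of the 37625 peaks of the deposited list. Of these, 5140 peaks (16.0%) formed 2570 pairs, 24874 (77.5%) were single peaks with no neighbour within 2000 bp, and 2061 (6.43%) fell into 608 chains of 3 to 9 peaks. The distances within and around pairs, and how often peaks are paired where peaks are dense, are tied to that choice and are given as description; scores were not used in it, and widths entered only through the centres.

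The zinc finger protein CTCF recognises a long DNA motif that has a direction. In vertebrates it stops cohesin as cohesin extrudes chromatin loops, so that loops are often anchored at CTCF sites that point toward each other, and neighbouring sites can act on the same anchor. Clustered CTCF sites are known from boundaries of topological domains and from insulators.

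The peaks came from ChIP-seq of whole zebrafish embryos of the AB strain at 24 hpf (hours post fertilisation), labelled with the genotype ctcf{HPSH}. The 2 CTCF ChIP replicates used an anti-HA antibody to pull down the tagged CTCF, and the 2 input DNA controls are labelled with no antibody. Each replicate was made from 2000 embryos pooled from crosses of ctcf HA/wt fish, so the tag sat beside a wild-type allele in the parents, and a peak averages over all cell types and genotypes of the pool. The authors combined the replicates into 1 list in danRer10 coordinates, which gives each peak a start, an end, a summit and a score. Nothing in it is a value per replicate or for the input, the depth of the libraries is unknown, and so no difference here could be set against the spread between embryo pools. Errors are the SD over the 22 chromosomes or exact intervals at the 95% level that cover counting error only, and no p-values are given. The score is the authors' whole number of unstated scale: it was used by rank and in its own units. DNA sequence, motif orientation and genes at the pairs were not analysed here.

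The summits of a pair lay a median of 947.5 bp apart, with quartiles of 591 and 1393.75 bp. The median per chromosome averaged 950.3 ± 68.6 bp (SD, n = 22 chromosomes), from 798 bp on chromosome 8 to 1059 bp on chromosome 21. Short distances were the most frequent. The class of 400 to 500 bp held 305 pairs (exact Poisson interval 272 to 341), or 11.9% of all, and the classes of 500 to 600 bp and 600 to 700 bp held 219 and 209. Only 132 pairs lay at 300 to 400 bp and 4 below 300 bp. In that range peaks of the minimum width, 200 bp, barely have room beside the smallest edge-to-edge gap of any pair, 101 bp.

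Beyond the mode the counts did not fall evenly. They were 166, 178 and 159 in the 3 classes of 700 to 1000 bp, and 187 (interval 161 to 216) at 1000 to 1100 bp and 160 (136 to 187) at 1100 to 1200 bp. The interval at 1000 to 1100 bp overlapped those of the 3 classes before it. The next class, 1200 to 1300 bp, held 100 pairs (81.4 to 122), below the interval of either class before it, and the classes from 1300 to 1900 bp held between 94 and 122 each. In 464 pairs (18.1%) both peaks were at most 250 bp wide, so that width left most distances open. Of these narrow pairs, 52 (38.8 to 68.2), or 11.2%, lay at 400 to 500 bp and 44 (32.0 to 59.1), or 9.48%, at 1000 to 1100 bp. The classes of 600 to 700 bp and 1200 to 1300 bp held 21 and 19 of them (13.0 to 32.1 and 11.4 to 29.7). The 3 classes of 700 to 1000 bp held 34, 27 and 30 narrow pairs, and the class of 1100 to 1200 bp held 32. Among these classes, all but 1200 to 1300 bp had intervals that overlapped the one at 1000 to 1100 bp. The classes from 1300 to 1900 bp held between 14 and 29 narrow pairs each. Many classes were looked at, and the intervals make no allowance for that.

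**Figure D1:**
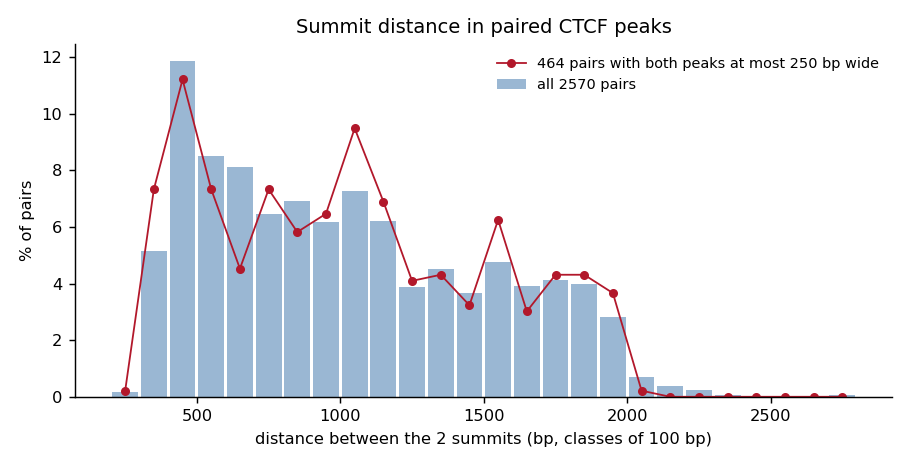
Distance between the 2 summits of a pair in classes of 100 bp (x axis, bp) against the percentage of pairs (y axis). Bars are all 2570 pairs and the line is the 464 pairs of narrow peaks. Both are highest at 400 to 500 bp. Both are higher at 1000 to 1100 bp than at 1200 to 1300 bp, a contrast seen among many classes.

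Many mates were separated by little more than the smallest gap found in any pair. The gap between facing edges was at most 200 bp in 517 pairs (20.1%), over 200 and up to 300 bp in 300 pairs, and over 300 and up to 400 bp in 206, and its median was 572 bp. Mates across the shortest gaps were wider: at gaps of up to 150 bp, 27.2% of mates exceeded 400 bp and 6.29% exceeded 1000 bp, whereas at gaps over 1000 bp these shares were 15.7% and 0.594%. The distance between centres includes the gap and part of both widths. The limit of 2000 bp therefore leaves less room for wide mates at long gaps, so the choice of pairs bears on this difference. The shares over 400 bp were 28.9% at gaps over 150 and up to 200 bp and 24.3% at gaps over 200 and up to 300 bp. Those over 1000 bp were 5.23% and 2.33%. How far the limit sets these shares was not tested. The scores differed less, with a median of 381 at gaps up to 150 bp and 364 at gaps over 1000 bp. Whether a pair with a short gap is 1 bound region listed as 2 peaks was not tested, since the signal track was not used here.

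The shortest summit distance, 276 bp, belonged to a pair on chromosome 16 (15870904 to 15871179 and 15871290 to 15871696) with low scores of 177 and 187. The next shortest were a pair on chromosome 5 at 36396442 to 36397026, with 287 bp between summits and scores of 228 and 149, and one on chromosome 3 at 61708465 to 61709043, with 295 bp and scores of 619 and 320. At the far end of the range, 38 pairs had summits more than 2000 bp apart although their centres were within the limit. The longest distances belonged to pairs with at least 1 very wide peak: 2738 bp on chromosome 8 (39277629 to 39280751, widths 1815 and 1158 bp), 2713 bp on chromosome 6 (32656548 to 32660085, widths 1275 and 1992 bp) and 2395 bp on chromosome 1 (27514854 to 27517717, widths 1958 and 429 bp).

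At the limit itself there were 89 pairs with centres 1900 to 2000 bp apart and 97 couples of neighbouring single peaks with centres 2000 to 2100 bp apart, with median scores of 474 and 286 in the stronger and weaker peak of the pairs and of 522 and 321 in those of the single neighbours. Nearest inside the limit was a pair on chromosome 7 with centres 1999.5 bp apart and scores of 921 and 1687. Nearest outside was a couple on chromosome 19 with centres 2001 bp apart and scores of 624 and 340.

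The 2 mates of a pair were hardly alike in score. Spearman's rho between the left and the right score was 0.0931 over 2570 pairs, and the mean of the values per chromosome was 0.0875 ± 0.0884 (SD, n = 22), positive on 20 chromosomes and ranging from -0.0917 on chromosome 23 to 0.288 on chromosome 12. On the scale of score rank, where the lowest of the 32075 peaks stands near 0% and the highest near 100%, mates differed by a median of 27.6 percentage points, with quartiles of 12.3 and 47.1. Pairs are not independent replicates, and these correlations describe the list.

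Neighbouring single peaks that lay farther apart served as comparison. For the 2469 couples of single neighbours 2 to 5 kb apart, rho of the scores was 0.0776 (mean over chromosomes 0.0841 ± 0.105) and the median rank difference was 28.5 points. The correlation of the scores was higher in the pairs on 10 chromosomes and lower on 12. Farther out rho declined, to 0.0534 at 5 to 10 kb and 0.0171 at 50 to 100 kb. Within pairs it varied with distance without a steady trend. It was -0.0406 for centres within 400 bp (119 pairs), 0.109 at 400 to 800 bp (933 pairs), 0.172 at 800 to 1200 bp (665 pairs), 0.0778 at 1200 to 1600 bp (442 pairs) and -0.0250 at 1600 to 2000 bp (411 pairs). The SD over chromosomes was 0.536 in the first of these classes and 0.123 to 0.261 in the others.

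**Figure D2:**
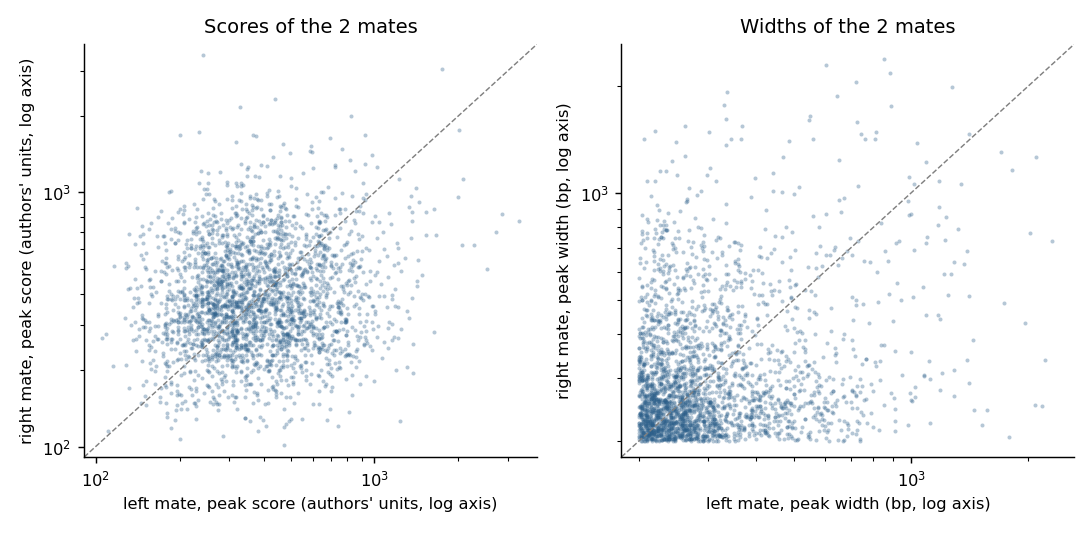
Score (left panel, authors' units) and width (right panel, bp) of the left mate (x axis) against the right mate (y axis) on log axes, 1 point per pair (2570 pairs), with the line of equality dashed. The scores form a round cloud (rho = 0.0931). The widths crowd at the minimum of 200 bp (rho = 0.149). Both mates exceed 400 bp in 6.34% of pairs, and 21.0% of all paired peaks exceed it.

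In width the correlation between mates was somewhat larger. Spearman's rho of the widths was 0.149 over all pairs, with a mean of 0.143 ± 0.0852 (SD, n = 22) and positive values on 20 chromosomes. Single neighbours 2 to 5 kb apart had 0.0598 (mean 0.0582 ± 0.101), and rho was higher in the pairs on 17 of 22 chromosomes. The value for pairs depended on which were taken: it was 0.0805 with a limit of 1000 bp, 0.0981 in the 2466 pairs without a peak over 1000 bp, and 0.237 among the 16037 highest-scoring peaks. By 10 to 20 kb the value was 0.00575. By the distance between centres, rho of the widths was -0.334 for the 119 pairs within 400 bp and -0.0140 at 400 to 800 bp. It was 0.257, 0.289 and 0.155 in the next 3 classes of 400 bp. That distance includes part of both widths, so wide peaks have little room beside each other in the short classes. These values are tied to the measure of distance. By the gap between facing edges, rho was 0.0769 at gaps up to 150 bp and 0.134 over 150 and up to 200 bp. In the classes of longer gaps it was 0.214, 0.123, 0.181 and 0.117, in order. Both mates exceeded 400 bp in 163 pairs, or 6.34% (exact binomial interval 5.43 to 7.35%), against 4.94% (4.12 to 5.87%) of single neighbours 2 to 5 kb apart and 3.92% (3.36 to 4.54%) of those 10 to 20 kb apart. The intervals of pairs and of neighbours 2 to 5 kb apart overlapped, and peaks over 400 bp were themselves more frequent among paired (21.0%) than among single peaks (17.9%).

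**Figure D3:**
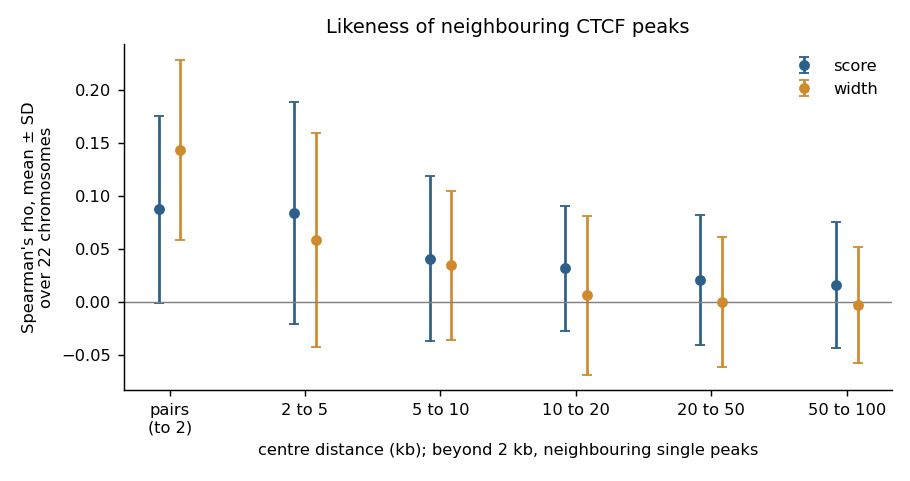
Spearman's rho between neighbouring peaks for score and for width (y axis, mean and SD over 22 chromosomes) by distance between centres (x axis, kb), for pairs and for neighbouring single peaks at growing distance. The mean for width is 0.143 in pairs and 0.0582 at 2 to 5 kb; the means for score are 0.0875 and 0.0841.

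The stronger mate was also the wider one in 1811 of 2548 pairs without ties, or 71.1% (exact binomial interval 69.3 to 72.8%). Single neighbours 2 to 5 kb apart gave 69.5% (67.6 to 71.3%), and the intervals overlapped. Over single peaks, score followed width somewhat more closely than over paired ones: rho was 0.477 in paired and 0.526 in single peaks. Left and right mates did not differ detectably: the left mate had the higher score in 48.5% of pairs (46.6 to 50.5%) and the larger width in 49.7% (47.8 to 51.7%). Summits sat in the middle of their peaks, at a median of 49.4% of the width in left mates and 50.1% in right mates. Summits were closer together than centres in 48.2% of pairs (46.3 to 50.2%), so neither a lean toward the partner nor one away from it was detectable over all pairs. By width the picture was uneven. Among mates 400 to 800 bp wide the summit lay on the side away from the partner in 474 of 887, or 53.4% (50.1 to 56.8%), with the summit at a median of 46.4% of the width in left mates and 52.9% in right mates. The outward share was 52.7% (50.5 to 54.95%) in mates of 250 to 400 bp, 49.6% (47.4 to 51.8%) in those of at most 250 bp and 47.6% (40.4 to 54.98%) in those over 800 bp. These intervals count the 2 mates of a pair as independent, and several width classes were looked at. With pairs chained by summits, summits were closer together than centres in 49.98% of all pairs. The way of chaining bears on this share. A limit on summits favours pairs with close summits, and a limit on centres favours pairs with close centres.

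The median score was 367 in paired peaks (quartiles 271.75 and 521.25), 370 in single peaks and 350 in chains of 3 or more. Taking 1 paired and 1 single peak of the same chromosome at a time, the paired one had the higher score in 48.9 ± 2.02% of couples (SD, n = 22 chromosomes), below 50% on 16 chromosomes, above it on 6, and lowest on chromosome 11 (45.0%).

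The stronger mate of a pair had a median score of 484 and the weaker 288, against 519 and 299 in single neighbours 2 to 5 kb apart. Over chromosomes the stronger mate's median was 482.0 ± 24.99 in pairs and 521.7 ± 18.98 in these neighbours (SD, n = 22), and it was lower in the pairs on 20 chromosomes, higher on 1 and equal on chromosome 21. For the weaker mate the values were 287.4 ± 11.6 and 299.95 ± 11.9, lower in the pairs on 15 chromosomes and higher on 6. Both peaks ranked in the top 25% of scores in 177 pairs, or 6.89% (exact binomial interval 5.94 to 7.94%), against 9.19% (8.08 to 10.4%) of the neighbours 2 to 5 kb apart. Both ranked in the bottom 25% in 7.28% of pairs (6.30 to 8.35%), against 5.91% (5.02 to 6.92%), and these intervals overlapped. A top and a bottom peak met in 10.8% of pairs (9.61 to 12.0%) and in 11.5% of the neighbours (10.2 to 12.8%). In single neighbours farther apart, the stronger and weaker medians were lower, 508 and 296 at 5 to 10 kb and 475 and 285 at 50 to 100 kb. Both peaks ranked in the top 25% in 8.73% and 5.35% of these couples. On these 3 measures the pairs lay between the nearest and the farthest single neighbours. On the other shares they did not. Both peaks ranked in the bottom 25% in 5.91% (5.09 to 6.81%) at 5 to 10 kb and 6.38% (5.61 to 7.23%) at 50 to 100 kb. A top and a bottom peak met in 12.2% (11.0 to 13.4%) and 11.7% (10.6 to 12.7%). All of these intervals overlapped those of the pairs.

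In the 5 pairs with the highest score of the weaker mate, both peaks stood at 97.3% of score rank or above. On chromosome 17, 7446472 to 7448647, the scores were 2016 and 1756 with 1649 bp between summits. On chromosome 13, 9683325 to 9686457, they were 1745 and 3070 with 841 bp, and both peaks were broad (1405 and 1463 bp). On chromosome 21, 45621713 to 45623033, the pair lay 0.256 Mb from the chromosome end and scored 2070 and 1131 with 807 bp between summits. On chromosome 25, 34545395 to 34547137, the scores were 1225 and 1126 at 1004 bp. On chromosome 19, 48357746 to 48358934, they were 1410 and 1043 at 828 bp, 0.397 Mb from the end. In all 5 at least 1 mate was wider than 400 bp, up to 1463 bp, and the narrowest mate measured 325 bp.

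At the other extreme a strong peak stood beside one near the bottom of the list. The most unequal pair, on chromosome 13, had scores of 1231 (18715075 to 18715427) and 126 (18715636 to 18715945), which is 98.2 percentage points of rank apart at a summit distance of 513 bp. A pair on chromosome 6 had 141 (25724271 to 25724605) and 868 (25725001 to 25726368), and one on chromosome 5 had 1377 (68486684 to 68487111) and 195 (68488401 to 68488674). On chromosome 19 a peak of 200 (80404 to 80663) lay before one of 1674 (81973 to 82547), and on chromosome 17 one of 998 (2053381 to 2053699) before one of 181 (2054671 to 2054887). In all 5 the weaker peak was also the narrower, by the least in the chromosome 13 pair, where the widths were 353 and 310 bp.

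Broad peaks were more frequent among paired peaks than among single ones. Over 1000 bp wide were 114 paired peaks, or 2.22% (exact binomial interval 1.83 to 2.66%), against 172 single peaks, or 0.691% (0.592 to 0.802%). The share was higher in the paired peaks on 22 of 22 chromosomes, with means of 2.21 ± 0.941% and 0.689 ± 0.253% (SD, n = 22). Chains of 3 or more had 4.56%. At the lower limit of 400 bp the shares were 21.0% of paired and 17.9% of single peaks, higher in the paired on 19 chromosomes. A paired peak was the wider in 53.1 ± 2.30% of couples with a single peak of its chromosome, above 50% on 21 of them. The median widths, 268 and 259 bp, were close.

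The 104 pairs with a broad mate (4.05%) stood apart from the other 2466 in several ways. Their gap had a median of 198 bp, against 592 bp in the others, and their summits lay 1319 bp apart at the median, against 930.5 bp. The stronger mate had a median score of 547 and the weaker 306.5, against 478 and 286. In 10 of the 104 pairs both mates were broad, and in the others the second mate measured at most 1000 bp. Over all 5140 paired peaks, 114 (2.22%) were broad. All 22 chromosomes held some of the 104 pairs, with 11 on chromosome 6, 10 on chromosome 1 and 8 on chromosome 2. A broad peak takes up more of the 2000 bp, which bears on both the gap and the summit distance. Its width also keeps the 2 centres apart. A broad mate occurred in 0 of the 119 pairs with centres within 400 bp and in 3 of the 933 at 400 to 800 bp. The longer summit distance is therefore tied to the definition of these pairs. How far the limit and the width set the gap and the summit distance was not tested.

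**Figure D4:**
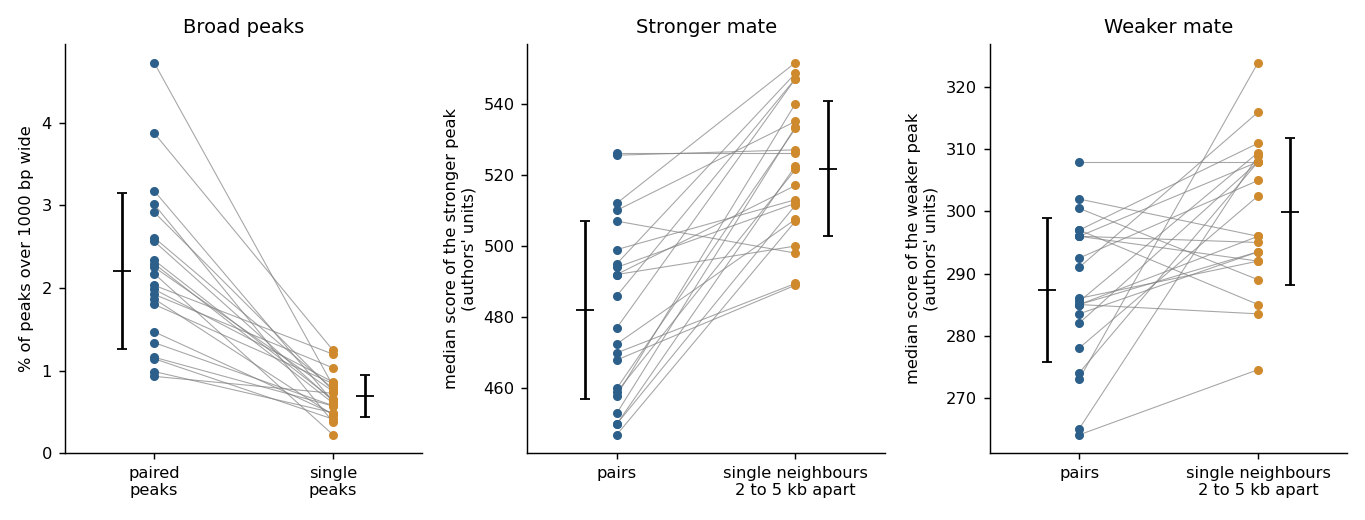
Percentage of peaks over 1000 bp wide in paired and in single peaks (left panel), and median score in authors' units of the stronger (middle) and weaker peak (right) in pairs and in single neighbours 2 to 5 kb apart. Each point is 1 of 22 chromosomes, lines join the same chromosome, and bars are mean ± SD; broad peaks are more frequent in pairs on all 22, and the stronger mate is lower in pairs on 20. The score axes do not start at 0, and single neighbours farther apart are not shown.

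Pairs occurred on all 22 chromosomes. Chromosome 16 held the most, 161, and chromosome 9 the fewest, 83. The density averaged 2.23 ± 0.380 pairs per Mb (SD, n = 22), from 1.46 on chromosome 9 to 3.04 on chromosome 25. Paired peaks made up between 13.1% (chromosome 9) and 17.6% (chromosome 16) of a chromosome's peaks. The longest stretch without a pair also lay on chromosome 9, from 35393023 to 45636555, or 10.2 Mb between the neighbouring pairs. Over all chromosomes, neighbouring pairs were a median of 199128 bp apart.

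Pairs gathered toward chromosome ends more steeply than peaks did. A chromosome was taken to end at its last peak. Within 2 Mb of an end there were 6.52 ± 1.27 pairs per Mb, against 1.87 ± 0.355 in the rest of the same chromosome (SD, n = 22). The ratio was 3.59 ± 0.929, above 1 on 22 of 22 chromosomes, lowest on chromosome 25 (2.49) and highest on chromosome 10 (5.51). For all peaks of the same chromosomes the ratio was 2.45 ± 0.389, and the ratio of pairs exceeded it on 22 of 22. Pairs were chosen by closeness, so a steeper rise of pairs than of peaks where peaks are denser is tied to that choice. The mean density of pairs decreased from class to class inward: it was 12.9 ± 5.51 per Mb in the outermost 0.25 Mb, 6.32 ± 3.11 between 0.5 and 1 Mb, 3.43 ± 1.03 between 2 and 5 Mb and 1.304 ± 0.464 past 15 Mb.

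The share of peaks that were paired followed the same course. It was 21.5% (exact binomial interval 20.4 to 22.7%) within 2 Mb of an end and 14.9% (14.5 to 15.4%) in the rest, and higher near the ends on 22 of 22 chromosomes. In the outermost 0.25 Mb it was 26.3% (23.7 to 29.1%), and beyond 15 Mb it was 13.7% (13.0 to 14.4%). The share also rose with the number of peaks around: it was 4.23% in 1 Mb bins of under 10 peaks, 10.3% with 10 to 19 peaks, 17.4% with 30 to 39 and 22.6% with 60 or more. Among bins of 60 or more peaks, the share was 23.4% (21.8 to 25.03%) in the outer 2 bins of each end and 21.1% (18.9 to 23.4%) elsewhere, and among bins of 40 to 59 it was 19.8% (17.9 to 21.7%) and 17.6% (16.5 to 18.7%). With 30 to 39 peaks the order was the opposite, 14.1% (10.8 to 18.04%) in the 11 outer bins and 17.6% (16.7 to 18.6%) elsewhere, and with 20 to 29 peaks it was 17.1% (11.9 to 23.6%) in 7 outer bins and 13.8% (13.0 to 14.6%) elsewhere. In all 4 classes of density the intervals of ends and rest overlapped. The parts of place and of peak density cannot be told apart here.

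Of 1162 whole 1 Mb bins, 299 held no pair, 286 held 1, 205 held 2, 276 held 3 to 5 and 96 held more than 5. The first megabases of chromosomes 2, 10 and 14 shared the highest count, 16 pairs each among 96, 114 and 99 peaks. The first megabases of chromosomes 12 and 13 and the bin from 45000001 to 46000000 on chromosome 23 followed with 13 each. Bins were counted from the first base, so the incomplete last bin of each chromosome is left out.

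**Figure D5:**
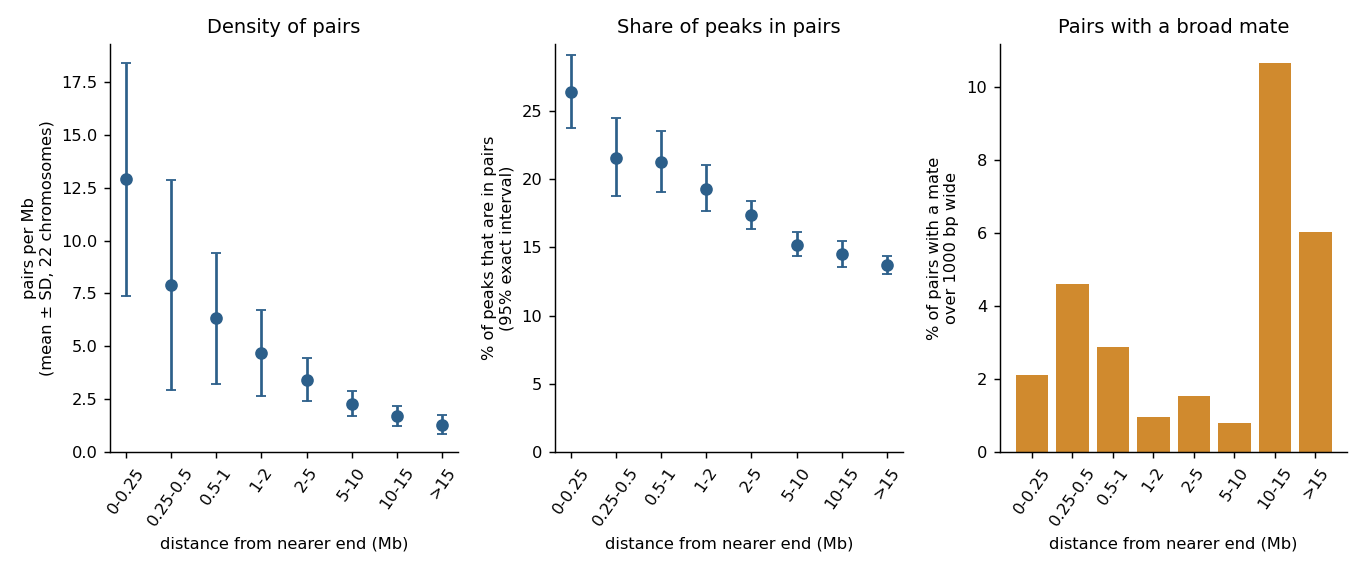
Density of pairs per Mb (left panel, mean ± SD over 22 chromosomes), percentage of peaks that are in pairs (middle, with 95% exact binomial intervals) and percentage of pairs with a mate over 1000 bp wide (right), by distance from the nearer chromosome end (x axis, Mb). The first 2 measures fall from the end inward, with 12.9 pairs per Mb and 26.3% in the outermost class and 1.304 pairs per Mb and 13.7% past 15 Mb, while pairs with a broad mate reach 10.6% at 10 to 15 Mb.

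The median score of the stronger mate was between 502.5 and 595 in the 4 classes within 2 Mb of an end and between 455 and 494 in the 4 classes farther in. For the weaker mate the classes were not so ordered: its median was 306.5, 316, 286 and 309.5 in the 4 outer classes, from the end inward, and 290, 287, 284.5 and 276 in the others. Over all paired peaks the median was 407.5, 412.5, 373.5 and 399.5 in the 4 outer classes, from the end inward, and 375.5, 355.5, 360 and 355.5 in the others. Single peaks had 416, 432, 406 and 391 in the 4 outer classes and 382, 377, 359 and 356 in the others. The summit distance had a median of 1083 bp in the outermost 0.25 Mb, 882 bp at 5 to 10 Mb and 984 bp beyond 15 Mb. These medians are over all chromosomes together, without an error.

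Pairs with a broad mate were sparse between 2 and 10 Mb from the ends. Of these 104 pairs, 80 (76.9%) lay more than 10 Mb from the nearer end, against 38.9% of the other pairs. Per length, there were 0.148 of them per Mb (exact Poisson interval 0.0787 to 0.253, 13 pairs) within 2 Mb of an end. The value was 0.0313 (0.0156 to 0.0559, 11 pairs) between 2 and 10 Mb and 0.109 (0.0865 to 0.136, 80 pairs) beyond 10 Mb. The intervals of the first and the last zone overlapped. These intervals take the pairs as independent and are too narrow where pairs lie in groups. The 11 pairs with a broad mate on chromosome 6 were spread widely, some of them close to an end. Chromosomes 1 and 2 held 10 and 8 such pairs. On each, most of them lay within the same few megabases, more than 10 Mb from an end. How far such groups set the rate beyond 10 Mb was not tested for these pairs. Their share among all pairs was 2.11, 4.60, 2.88 and 0.971% in the 4 classes from the end to 2 Mb, 1.55% at 2 to 5 Mb, 0.795% at 5 to 10 Mb, 10.6% between 10 and 15 Mb and 6.02% past 15 Mb. Counted as peaks over 1000 bp, 78.1% of those in pairs and 77.7% of those in chains of 3 or more lay beyond 10 Mb, against 41.3% of single ones, while 40.5% of all paired, 49.8% of all chained and 47.4% of all single peaks did. Their median score was 525.5 in pairs and 721 among single peaks. Which sequences lie there was not analysed here.

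Outside its own 2 peaks a pair was usually not far from the next one. The nearest other peak lay a median of 9551.5 bp away, edge to edge, with quartiles of 4268.5 and 20592 bp, against a median of 12209 bp for single peaks. No other peak lay within 20 kb of 668 pairs (25.99%), within 50 kb of 170 (6.61%) and within 100 kb of 40 (1.56%). For single peaks these shares were 33.0%, 9.99% and 2.26%. The most remote pair, on chromosome 6 at 41257596 to 41258341, was 251511 bp from any other peak and consisted of 2 narrow peaks of 244 and 225 bp with scores of 504 and 419 and summits 523 bp apart. Next were pairs on chromosome 21 at 29383642 to 29385729 (222018 bp away, scores of 325 and 652) and on chromosome 10 at 14597089 to 14598650 (203807 bp away, scores of 631 and 523). In each of these 3 pairs at least 1 mate scored above the median of 367 for all paired peaks. Most pairs have such a mate, since the stronger mate over all pairs had a median of 484 and a lower quartile of 361.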

How the data were processed

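Per the file headers, the deposited table is a narrowPeak list of peaks that the authors obtained from combined replicates. Per the submitters' processing notes, the build was danRer10 and the tools, named with no role, were Bowtie2 2.2.5, CASAVA, cutadapt 1.3, deepTools 3.0.1, FastQC 0.9.3, MACS2, Picard 1.45 and SAMtools 1.1. No command or threshold is given in the sources used here. The deposited score is a whole number by the authors whose scale is not stated. Peak positions are printed 1-based.

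A pair's summit is the start plus the deposited offset. Score and width ranks were taken over the 32075 peaks of the 22 chromosomes. The last peak's end stood for the end of a chromosome, with gaps in the assembly left in. Single neighbours are consecutive single peaks. The pairs named are the 5 with the highest weaker score, the 5 most unequal in score rank, the 3 shortest and 3 longest, the 3 most remote and those nearest the limit. Members, named pairs and measures were chosen with earlier results of these data known. The grouping steps were tested on simulated data with planted pairs. Alternatives were other distance limits, chaining by summits, the 16037 highest-scoring peaks, joining of peaks within 250 bp and other end widths. The work was done with pandas 2.3.3, numpy 2.4.6, matplotlib 3.10.9 and scipy 1.17.1 in Python 3.11.15.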

Additional observations from a re-analysis of the deposited data

How the results depend on the processing

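Of 72 alternatives over 11 results, 55 stayed within 1 SD over chromosomes, within the 95% binomial interval or, for counts, within 1.5 times. The other 17 moved with a shorter or longer limit, with fewer or joined peaks, or with other end widths. The number of pairs was 1651 at a limit of 1000 bp and 827 among the highest-scoring 16037 peaks. The median summit distance was 625, 789 and 1199 bp at limits of 1000, 1500 and 3000 bp, and 1152 bp after joining peaks within 250 bp, which left 30886 peaks and 2038 pairs. The percentage of peaks in pairs near chromosome ends was 13.4, 18.5 and 24.3 at those 3 limits, 15.9 in the 16037 highest-scoring peaks, 18.98 after joining, and 23.0 and 19.5 for ends of 1 Mb and 5 Mb. In each of these it exceeded the rest of the chromosomes, which ranged from 9.02 to 18.1%. In the same 16037 peaks the density ratio of ends to the rest was 5.24, the rho of the widths 0.237 and the median distance to the nearest other peak 12543 bp; the last was 7197 bp at a limit of 1000 bp. Why any of these values moved was not tested.

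The rho of the scores kept between 0.0875 and 0.127 in all alternatives. The rank of paired against single peaks was 50.3% among the 16037 highest-scoring peaks and 47.8 to 49.6% in the other alternatives. Chaining by summits also gave 2570 pairs, of which 2520 were found by both. The pairs' likeness could not be computed without 1 replicate, because replicates were combined before deposit. No paired analysis was possible because the list has no value per replicate. At the unknown depth, a single peak may have a partner that was not detected.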
